A study of Mus musculus with 12 samples.

Results

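Meis1 peaks in later introns are the binding peaks that the deposited Meis1 annotation places in any intron of a transcript other than the first. They were chosen by that annotation alone, whatever their height, and number 7120 of the 30534 peaks in the Meis1 list, or 23.3% (exact binomial 95% interval 22.8 to 23.8%, which covers counting error only). The study mapped binding of the homeodomain proteins Meis1 and Hoxb13 by chromatin immunoprecipitation and sequencing in ventricles of CD-1 mice at postnatal day 15. Its 12 libraries form 4 groups of 3: Meis1 precipitates, inputs for Meis1, Hoxb13 precipitates and inputs for Hoxb13. The labels give 3 hearts as biological triplicates and name no genotype, transgene or treatment. The protocol divides the chromatin of each heart between both antibodies, but the titles number the Hoxb13 libraries apart from those of Meis1, so whether both factors were mapped in the same 3 hearts is unknown. The values analysed here are 1 peak list per factor, so each number describes the list and has no spread between hearts.

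Meis1 belongs to the TALE class of homeodomain proteins, which bind DNA together with partner proteins, for Meis1 including Hox proteins of the posterior groups. In the mouse heart Meis1 and Hoxb13 are known as regulators of the withdrawal of cardiomyocytes from the cell cycle after birth, with genes for cyclin-dependent kinase inhibitors among the targets of Meis1. Introns are transcribed and then spliced out, and many enhancers lie within them. First introns are often close to the promoter, whereas later introns of long genes can lie far from any start site, so the gene that contains a peak and the gene whose start is nearest need not be the same.

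Base sequence could be read for the few later-intron peaks that reach a RefSeq promoter window, the 250 bases before and 50 bases after an annotated start (GRCm38.p6). Only 21 of the 7120 peaks (0.295%, 0.183 to 0.451%) overlapped such a window, compared with 9 of the 3088 first-intron peaks (0.291%, 0.133 to 0.553%) and 3.75% of the whole list. Every later-intron peak lay at least 1.004 kb from the nearest start in the authors' annotation. Only RefSeq starts away from those starts could therefore be met, and the low share follows from how the class is defined. In 4 of the 21 the start belonged to the host gene itself, Bmf, Ptpa, Fam78a and Eml1, and in the others to another transcript, known only by a Gm, LOC or Rik identifier. The 6 stretches below were selected after inspection to show both situations: 5 hold the TALE hexamer TGACAG, and Ptpa has its summit nearest to a start of its own host gene. Each runs 5′ to 3′ toward the start, covers only bases that lie both under the peak and before the start, and has TGACAG, or CTGTCA where it lies on the other strand, in capitals.
Pard3 intron 20 of 20, chr8:127441286-127441387, minus strand: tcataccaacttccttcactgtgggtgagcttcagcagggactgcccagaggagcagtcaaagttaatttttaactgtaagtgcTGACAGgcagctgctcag
Adamts9 intron 12 of 29, chr6:92869126-92869356, plus strand: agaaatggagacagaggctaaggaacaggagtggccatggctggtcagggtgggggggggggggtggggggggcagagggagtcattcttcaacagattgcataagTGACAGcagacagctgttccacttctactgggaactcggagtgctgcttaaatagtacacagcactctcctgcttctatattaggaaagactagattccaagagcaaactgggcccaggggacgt
Ptpa intron 8 of 9, chr2:30441709-30441852, plus strand: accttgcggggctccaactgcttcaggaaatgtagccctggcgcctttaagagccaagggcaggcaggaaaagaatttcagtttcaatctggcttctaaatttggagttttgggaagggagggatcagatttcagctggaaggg
Coro1c intron 2 of 10, chr5:113873106-113873215, plus strand: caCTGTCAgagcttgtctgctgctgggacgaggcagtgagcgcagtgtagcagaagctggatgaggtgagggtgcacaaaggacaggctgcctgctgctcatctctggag
Pde4d intron 3 of 16, chr13:109441012-109441185, minus strand: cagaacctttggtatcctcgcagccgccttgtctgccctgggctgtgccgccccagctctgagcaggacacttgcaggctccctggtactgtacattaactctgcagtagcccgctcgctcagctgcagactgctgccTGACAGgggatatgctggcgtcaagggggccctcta
Eml1 intron 4 of 6, chr12:108495049-108495295, plus strand: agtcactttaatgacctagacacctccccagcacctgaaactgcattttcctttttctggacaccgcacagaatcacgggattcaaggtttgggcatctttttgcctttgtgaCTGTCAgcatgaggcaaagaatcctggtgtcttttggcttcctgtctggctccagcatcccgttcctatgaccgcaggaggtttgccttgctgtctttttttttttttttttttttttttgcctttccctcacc

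The peaks behind these sequences ranged from strong to weak. Peak strength is the value the authors deposited for each peak under a column number only. It is taken as the signal value from its place and range in the narrowPeak layout, since the lists do not name it. It ran from 15.6 to 434.5 over later introns. It was 119 for the peak in Pard3, which encodes a cell polarity scaffold, and 48.5 for the peak in Adamts9, a secreted metalloprotease. Ptpa, an activator of protein phosphatase PP2A, had a peak of strength 39.5 with its summit 2 bp from the internal start. These 3 peaks also overlapped a Hoxb13 peak. The peak in Coro1c, at 19.3, was close to the median of later introns, and those in Pde4d and Eml1, at 16.8 and 16.6, were in the lower part of the list. Searched on both strands of the whole 300-base windows, TGACAG occurred in 8 of the 23 windows under later-intron peaks (34.8%), in 19.1% of 32544 RefSeq windows and in 43.5% of the 1369 windows under any Meis1 peak. With 23 windows these shares are a description only, and a match is not evidence of binding.

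Later introns held most of the intronic binding. Of the 10208 intronic peaks, 69.7% lay in a later intron, and the remaining 3088 lay in first introns. In the Hoxb13 list later introns held 14.8% of 22284 peaks (14.3 to 15.3%), so their share of the Meis1 list was larger, outside both counting intervals. Promoters held 40.3% of the Hoxb13 list and 6.73% of the Meis1 list. Of the 5223 intronic Hoxb13 peaks, 3294 lay in later introns, so a majority there is shared by both factors. Within later introns the peaks were concentrated near the start of the numbering: 1816 (25.5%) lay in intron 2, 1203 (16.9%) in intron 3 and 751 (10.5%) in intron 4. The median position was intron 4 of transcripts with a median of 11 introns. A tail reached much further, with 350 peaks in introns 21 to 50 and 37 beyond intron 50. The last intron of the transcript held 980 of the peaks (13.8%).

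**Figure D1:**
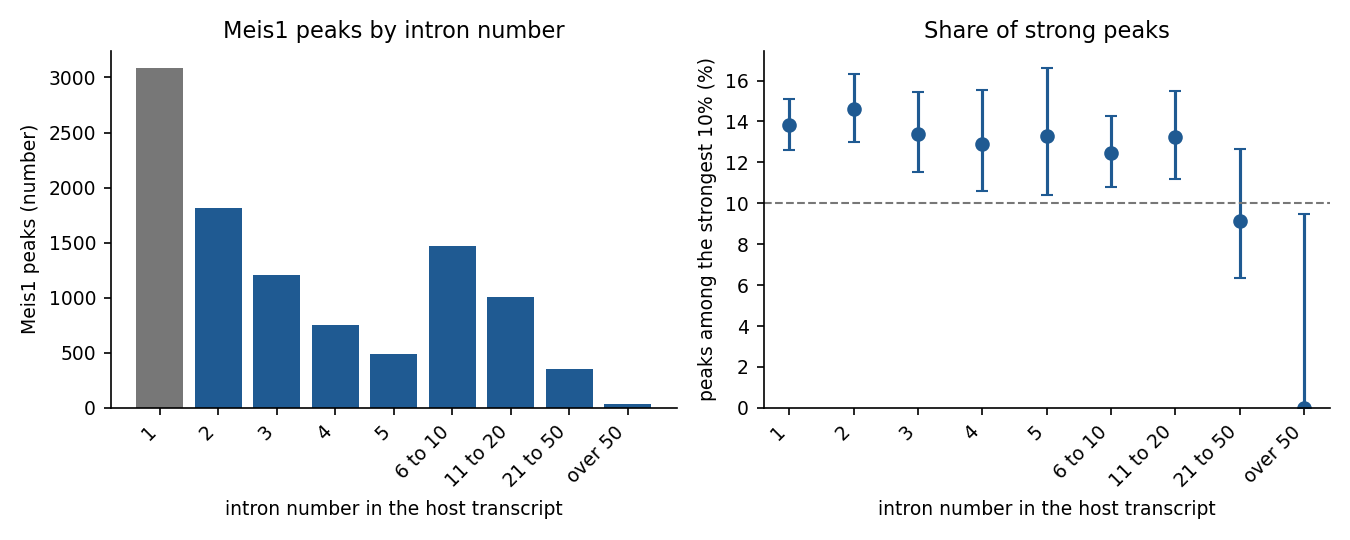
The left panel gives the number of Meis1 peaks by intron number (first introns in grey, later introns in blue), and the right panel the share of each group that belongs to the strongest 10% of the Meis1 list, with exact binomial 95% intervals and a dashed line at 10%. Introns beyond the fifth are grouped; numbers fall from 3088 in intron 1 to 489 in intron 5, while the share of strong peaks lies between 12.5% and 14.6% from intron 1 through introns 11 to 20.

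The share of strong peaks was similar up to introns 11 to 20 and lower beyond them. The strongest 10% of the Meis1 list, peaks with a strength of 43.7 or more, took in 14.6% of peaks in intron 2 (13.0 to 16.3%), 13.4% in intron 3 (11.5 to 15.4%) and 13.2% in introns 11 to 20 (11.2 to 15.5%). The share was 9.14% in introns 21 to 50 (6.34 to 12.7%), below the interval of intron 2 and overlapping that of introns 11 to 20. None of the 37 peaks beyond intron 50 was among the strongest 10%, a count that allows a share of up to 9.49%, below the intervals of introns 1 to 20.

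As a class, later-intron peaks were stronger than intergenic peaks and close to first-intron peaks. Their median strength was 19.2 (quartiles 16.9 and 27.3), compared with 20.3 in first introns, 18.02 between genes and 23.6 at promoters. Of the 7120 peaks, 936 (13.1%, 12.4 to 14.0%) were among the strongest 10% of the list. The same share was 13.8% in first introns (12.6 to 15.1%), an overlapping interval, and 6.98% between genes (6.60 to 7.38%), a lower one. Later introns accordingly made up 30.7% of the strongest 10% of the list (29.0 to 32.3%) and 20.1% of the weakest (18.7 to 21.6%). First introns went from 14.0% in the strongest 10% to 8.09% in the weakest.

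**Figure D2:**
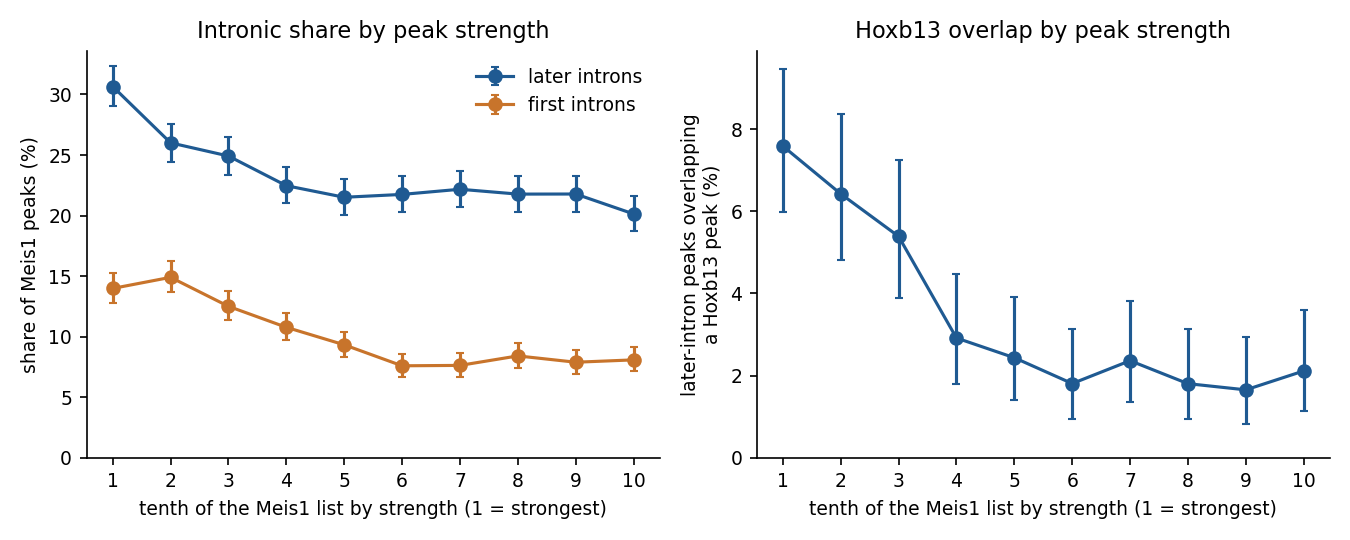
The Meis1 list was divided by peak strength into 10 equal parts, 1 being the strongest; the left panel gives the share of each in later and first introns, and the right panel the share of later-intron peaks overlapping a Hoxb13 peak, all with exact binomial 95% intervals. The later-intron share is 30.7% in the strongest 10% and 20.1% in the weakest, and the Hoxb13 overlap is 7.59% and 2.11%.

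The strongest later-intron peak, of strength 434.5, lay in intron 16 of 31 of Plcb2, a phospholipase C, at chr2:118716644-118716906 (mm10), at -2.54 kb from the nearest annotated Plcb2 start, where a negative value is upstream. Next came Lclat1, an acyltransferase that acts on cardiolipin, with a peak of strength 392 in the last of 5 introns at chr17:73226014-73226263. Trpm2, a calcium-permeable cation channel, had a peak of strength 378 in intron 13 of 15 at chr10:77912682-77912977. Jph2 encodes junctophilin-2, which holds the sarcoplasmic reticulum close to the T-tubule in cardiomyocytes. Its peak of strength 375 lay in intron 2 of 5 at chr2:163363176-163363419. These 4 peaks ranked between 5 and 16 in the whole Meis1 list.

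The other 16 of the 20 strongest later-intron peaks had strengths from 293 to 368 and came from genes of mixed roles. The nuclear factors Tox (368), Hltf (349), Zbtb7c (313) and Zbtb20 (312), the histone methyltransferase Dot1l (346) and the RNA-binding splicing factors Mbnl1 (304) and Rbfox3 (297) were among them. So were the kinases Hipk3 (365) and Grk3 (317), the Arf GTPase-activating protein Git2 (347), the Golgi subunit Cog5 (331) and the potassium channel subunit Kcng2 (329.5). Cdh2, the N-cadherin of the intercalated disc, stood at 298, and Clasp1, a microtubule-binding protein, at 293. The remaining pair was Aig1 (305) and Nploc4 (297.5). All 20 peaks were between 229 and 374 bp wide. That differs from the list's usual 284 bp: 508 later-intron peaks (7.13%) had another width, with a median strength of 105, against 18.7 for those of 284 bp.

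The host gene, the gene whose transcript contains the peak in the authors' annotation, was identified for 6889 of the 7120 peaks and was one of 3132 genes. Most hosts carried few peaks: 1857 (59.3%) had 1, and the mean was 2.2. A small number of hosts carried many, since 290 genes with 5 or more peaks held 2516 of them (36.5%). Of the hosts, 691 (22.1%) also had a Meis1 peak in a first intron and 404 (12.9%) one at a promoter, while 2159 (68.9%) had neither. Of all protein-coding genes 6.94% had a first-intron Meis1 peak and 8.16% a promoter peak. Among protein-coding genes over 200 kb the first-intron share was 45.1% in hosts and 35.4% in other genes, and the promoter shares there were 14.6% and 14.8%. At 50 to 200 kb the first-intron shares were 19.8% and 15.1%, and the promoter shares 13.6% and 9.17%. Under 50 kb they were 6.46% and 2.36% for first introns, and 11.5% and 6.97% for promoters. By the RefSeq gene table, 2936 of 21900 protein-coding genes (13.4%) hosted a later-intron peak, and this share is the background for the gene lists below. Genes without a later intron cannot host one. They were not left out of this share or of the shares by gene length, which are lower for it by an unknown amount.

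Hosting rose steeply with gene length. Hosts had a median length of 99.6 kb, compared with 17.1 kb for all protein-coding genes. A peak was hosted by 1.80% of genes under 20 kb (1.56 to 2.05%), 48.6% of genes of 100 to 200 kb (46.0 to 51.2%) and 88.5% of genes over 500 kb (83.7 to 92.4%). The strength of the peaks was lower only in genes over 200 kb. The share of peaks among the strongest 10% was 19.4% in genes under 20 kb (14.5 to 25.1%) and 16.0% at 20 to 50 kb. It was 17.5% at 50 to 100 kb and 17.6% at 100 to 200 kb (15.5 to 19.7%). In genes of 200 to 500 kb it was 13.7% (12.1 to 15.4%), and in those over 500 kb 6.24% (5.13 to 7.51%). The number of peaks per 100 kb of gene also differed, at 0.259 in genes under 20 kb and 0.864 in genes over 500 kb. Intron lengths were not used here, so no count per length of intron is given.

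**Figure D3:**
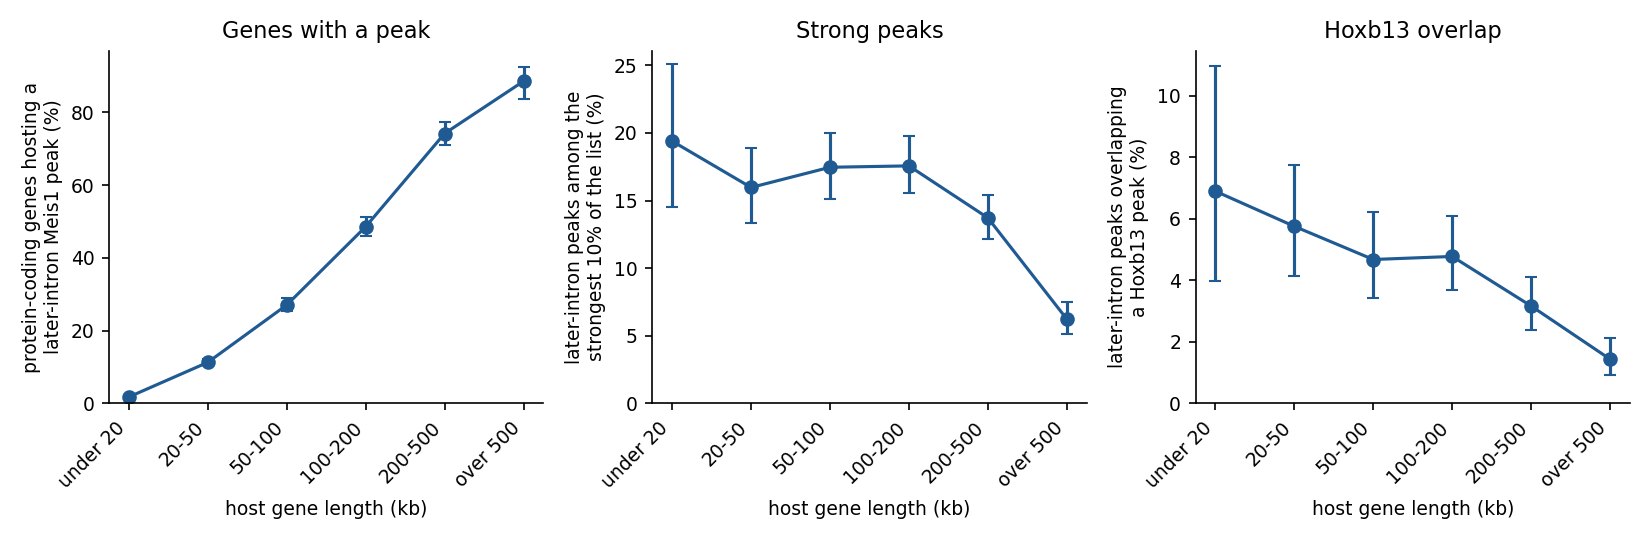
Protein-coding genes are grouped by length in kb; the panels give the share of genes hosting a later-intron Meis1 peak, the share of their later-intron peaks among the strongest 10% of the list, and the share overlapping a Hoxb13 peak, with exact binomial 95% intervals. Hosting rises from 1.80% to 88.5%. Strong peaks lie between 16.0% and 19.4% in the classes up to 200 kb and fall to 6.24% over 500 kb, where the Hoxb13 overlap is lowest, at 1.44%.

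The genes with most later-intron peaks were very long genes, many of them known for cell adhesion or synapses, and nearly all of their peaks were weak. Ptprd, a receptor tyrosine phosphatase, had 39 peaks, Gpc5, a glypican, had 38, Lrp1b, a lipoprotein receptor relative, had 33, and Lsamp, a cell adhesion protein, and Macrod2, an ADP-ribose hydrolase, had 30 each. Csmd1 followed with 29, Cntnap2 with 26, Ccser1 and Csmd3 with 23 each, Epha6 with 22, Ralyl with 21, Arfip1 and Nlgn1 with 19 each and Anks1b with 18. The 15 genes with most peaks held 395 (5.55% of all later-intron peaks), with a median strength of 17.5. Only 13 of the 395 (3.29%) were among the strongest 10% of the list. In Gpc5 the strongest of 38 peaks reached 23.7.

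Arfip1 differed from the others. It encodes a small-GTPase-binding protein and spans only 86.7 kb in RefSeq, yet 19 peaks were annotated to its introns, the strongest of 245, and 6 were among the strongest 10% of the list. All 19 lay outside the RefSeq body of Arfip1, over a stretch of 1171 kb covered by a longer transcript model used in the annotation. Over all hosts in the RefSeq table, 6774 of 6876 peaks (98.5%) had their summit inside the RefSeq body of the host, so this situation was rare.

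Single introns could carry many peaks. Gpc5 intron 7 of 7 held 25 peaks over 702.5 kb, intron 3 of the long Arfip1 model held 18 and Lsamp intron 2 held 17. Macrod2 intron 3, Nlgn1 intron 3, Lrrtm4 intron 2 and Mgat4c intron 3 each held 13. Among the 10 introns with most peaks, 2 belong to transcripts without a gene identifier, with 14 peaks over 88.0 kb on chromosome 5 and 11 peaks over 31.4 kb on chromosome 1. Of the 5130 introns with a peak, 4062 had 1 and 119 had 5 or more. The nearest other later-intron peak lay a median of 32.1 kb away, and 26.0% of the peaks had one within 10 kb.

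Counted per length of gene, a different set of hosts stood out, with Jph2 and Tmod1 of cardiac muscle among them. Among hosts with 5 or more peaks, and leaving aside Arfip1 for the reason above, the densest was Sp110, a nuclear body protein, at 12.5 peaks per 100 kb. Sp110 lies among near-identical gene copies on chromosome 1, so the placement of its 5 peaks is uncertain. Sardh, the mitochondrial sarcosine dehydrogenase, had 10.0 per 100 kb, and its 6 peaks had strengths of 157, 109, 97.2, 63.9, 35.6 and 25.4. Sh3bp5 had 9.45, Kcng2 8.61, Jph2 8.09 and Tmod1, which caps the pointed ends of actin filaments, 6.49. Acot7, a thioesterase, had 6.40, Gramd4 6.25 and the kinase Dapk2 6.14. The median over the 286 hosts with 5 or more peaks inside the gene body was 1.54, and all protein-coding genes together had 0.624 per 100 kb. Since 5 or more peaks were required, a short host could enter only with many peaks per length. The place of short hosts at the top follows in part from that rule.

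Gene lists for the heart and for other cell types were described against the 13.4% of all protein-coding genes that host a later-intron peak. Over 14 lists, 157 of 379 distinct genes (41.4%, 36.4 to 46.6%) hosted one. The lists differ in gene length, so shares within length classes are also given, for some lists not in every class. Over all protein-coding genes 4.65% of those under 50 kb, 34.9% of those of 50 to 200 kb and 77.5% of those over 200 kb were hosts. The lists were chosen with earlier results of these data known, so these counts describe the lists. A member without a later intron could not be a host, and such members were not set apart. No test of a list was made.

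Sarcomere genes, which encode the contractile apparatus, hosted later-intron peaks in 18 of 38 cases (47.4%, 31.0 to 64.2%). All 11 list members of 50 to 200 kb and all 3 longer ones were hosts, as were 4 of the 24 shorter ones. Their 46 peaks had a median strength of 22.8, and 12 (26.1%, 14.3 to 41.1%) were among the strongest 10%, compared with 13.1% of all later-intron peaks. Over all protein-coding genes this share was between 16.0% and 19.4% in the length classes up to 200 kb, within that interval. The 5 peaks in Tmod1 had strengths of 160, 98.6, 35.1, 15.9 and 15.7. The formin Fhod3 reached 130 and had 8 peaks, the Z-disc protein Ldb3 reached 123 with 3 peaks, and Mypn, a Z-disc and I-band protein, reached 95.7 with 2 peaks. Tnnt2, cardiac troponin T, had 3 peaks with a highest strength of 85.0, and 2 of the 3 overlapped a Hoxb13 peak. Ttn, the giant spring protein titin, had 3 weak peaks of 23.6, 16.9 and 15.9, in introns 188, 208 and 2 of 312. Myh6, Actc1 and Tnni3 had none.

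Genes of calcium handling and ion channels hosted later-intron peaks in 22 of 32 cases (68.8%, 49.99 to 83.9%). Of their 70 peaks 21 (30.0%, 19.6 to 42.1%) were among the strongest 10%. Among members over 200 kb 15 of 16 were hosts. In Jph2 all 5 peaks lay in intron 2, with strengths of 375, 105, 61.3, 26.3 and 16.0. Cacnb2, the beta subunit that brings the L-type calcium channel to the membrane, had 6 peaks in introns 2 and 3, of 280, 149, 47.5, 24.1, 17.0 and 15.9. The strongest of them lay at chr2:14929976-14930220, 56.3 kb from a Cacnb2 start. Cacna1c, the pore of that channel, had 6 peaks, all in intron 3 of 46, the strongest of 75.7.

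Abcc9, the sulfonylurea receptor subunit of ATP-sensitive potassium channels, had 4 peaks, of 282, 92.4, 35.6 and 20.5. Ryr2, whose product releases calcium from the sarcoplasmic reticulum and which spans 554 kb, had a single weak later-intron peak of 18.002, in intron 92 of 104, and 7 peaks in its first intron. The calcium pump gene Atp2a2 and its regulator Pln had no later-intron peak. Long genes of 1 list thus ranged from several strong peaks to 1 weak one. Cacna1c, Ryr2 and Ttn were named after their values were seen.

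Genes of the dystrophin complex, desmosomes and cell junctions hosted peaks in 16 of 28 cases (57.1%, 37.2 to 75.5%). Hosts were 2 of 11 members under 50 kb, 4 of 6 of 50 to 200 kb and 10 of 11 over 200 kb. Over the whole list, the peaks were neither stronger nor weaker as a group by much. Their 74 peaks had a median strength of 20.4, and 9 (12.2%) were among the strongest 10%, a share close to that of all later-intron peaks. Cdh2 had 7 peaks, of 298, 123, 78.8, 21.2, 18.8, 16.5 and 16.5, and 6 of the 7 lay in intron 2. The desmosomal plakophilin gene Pkp2 had a single strong peak of 257 in intron 6 of 12. Lama2, a laminin chain, had 10 peaks with a highest of 96.5, and Vcl, vinculin, had 1 of 96.0. The members with most peaks had weaker ones: Ctnna3 had 17 with a highest of 34.9, and Sgcd, delta-sarcoglycan, had 13 with a highest of 37.2. Dmd, dystrophin, had 2 peaks of 18.1 and 16.1 over 2390 kb. It lies on chromosome X, which held only 206 of the 30534 Meis1 peaks, so its count cannot be set against those of autosomal genes. Ctnna3, Sgcd and Dmd were named after their values were seen.

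**Figure D4:**
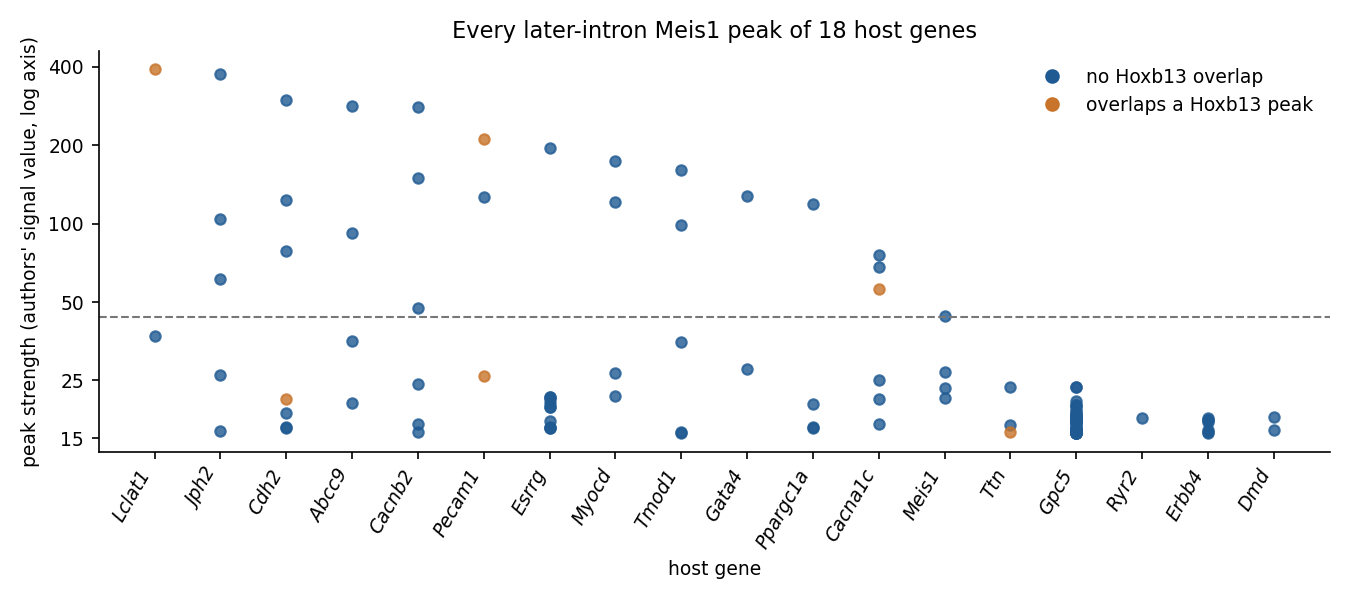
Every later-intron Meis1 peak of 18 host genes is drawn as a point at its strength (authors' signal value, log axis), orange where it overlaps a Hoxb13 peak, with a dashed line at 43.7, the lower limit of the strongest 10% of the Meis1 list; 5 of the genes (Cacna1c, Ttn, Ryr2, Erbb4 and Dmd) were chosen after their values were seen. Jph2, Cdh2 and Cacnb2 have 3 peaks each above the line, Esrrg and Ppargc1a 1 strong peak over weak ones, and all 38 peaks of Gpc5 lie at 23.7 or lower.

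Cardiac transcription factor genes hosted peaks in 12 of 31 cases (38.7%, 21.8 to 57.8%), with 27 peaks of a median strength of 26.8. Hosts were 1 of 15 members under 50 kb, 7 of 11 of 50 to 200 kb and 4 of 5 over 200 kb. Myocd, the coactivator of serum response factor, had 4 peaks, of 173, 121, 26.8 and 21.9, within introns 5 and 6. Gata4 had 2 in intron 2, of 127 and 27.8, and the stronger lay at chr14:63210444-63210628. Mef2d reached 52.4 and Mrtfb 50.7. Tbx5 had 2 peaks, of 37.1 and 21.7, in intron 7 of 8. Nkx2-5, Hand2 and Srf, which are short genes, had none, and neither had Mef2c, which is 163 kb long.

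Among genes of the TALE class itself, 4 of 18 hosted peaks (22.2%, 6.41 to 47.6%), with 15 peaks in all. Meis1 had 4 peaks of its own, of 44.4, 27.0, 23.4 and 21.4, in introns 6 and 7 of 11, and the strongest lay at chr11:18945762-18946045, 72.9 kb from the Meis1 start. Meis2 had 2, of 32.6 and 19.2, and Pbx3 had 1 of 17.2. The list members under 50 kb, 12 in number, had none.

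Cell cycle regulators hosted peaks in 5 of 30 cases (16.7%, 5.64 to 34.7%), close to the 13.4% of all genes. The kinase gene Cdk6 had 1 peak, of 122, in intron 4 of 7. Cdk14 had 5 with a highest of 91.1, the phosphatase gene Cdc14a had 2 with a highest of 48.2, Rb1 had 1 of 27.4 and Cdk19 had 1 of 19.2. None of the 7 genes of cyclin-dependent kinase inhibitors on the list, from Cdkn1a to Cdkn2d, held a later-intron peak, and none of the list's 21 members under 50 kb did. A gene with only a first intron cannot hold such a peak, and the introns of those genes were not counted. Peaks elsewhere around those genes were not counted here either.

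Genes of fatty acid and mitochondrial energy metabolism hosted peaks in 9 of 31 matched cases (29.0%, 14.2 to 48.0%), and 7 of their 27 peaks (25.9%, 11.1 to 46.3%) were among the strongest 10%. Hosts were 2 of 18 members under 50 kb, 4 of 10 of 50 to 200 kb and 3 of 3 over 200 kb. Lclat1 had 2 peaks, of 392 and 36.9, both in its last intron. Esrrg, an orphan nuclear receptor that drives oxidative genes, had 11 peaks. One of 195 stood in intron 2 at chr1:188010945-188011158, and the other 10 were between 16.4 and 21.6. The coactivator gene Ppargc1a had 4 peaks, of 119, 20.2, 16.6 and 16.4, and Cpt1a, which admits fatty acids to mitochondria, had 1 of 86.9. The nuclear receptor gene Ppara had 3, of 56.4, 40.3 and 19.2. In Lclat1, Esrrg and Ppargc1a a single peak stood well above the others.

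Genes of growth factor, Hippo and calcineurin signalling hosted peaks in 19 of 35 cases (54.3%, 36.6 to 71.2%), with 62 peaks of a median strength of 19.6. By length, 0 of 9 members under 50 kb and 8 of 12 of 50 to 200 kb (66.7%) were hosts. Over 200 kb 11 of 14 were (78.6%), close to the 77.5% of all protein-coding genes of that length. Fgf13 had 6 peaks with a highest of 168, the kinase gene Prkg1 had 10 with a highest of 139, and the phosphodiesterase genes Pde4d and Pde3a had 12 and 2 with highest values of 131 and 113. Fgf13 lies on chromosome X, so its count, like that of Dmd, cannot be set against those of autosomal genes. Erbb4, the receptor for neuregulin, had 7 weak peaks between 15.7 and 17.9. The Hippo effector gene Yap1 had 1 of 16.6. Erbb4 and Yap1 were named after their values were seen. The neuregulin gene Nrg1, 1084 kb long, hosted none in later introns and 1 in its first intron.

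The tissue was whole ventricle, and markers of its other cell types also hosted peaks. Endothelial markers did so in 7 of 26 cases (26.9%, 11.6 to 47.8%): 1 of 16 under 50 kb, 4 of 8 of 50 to 200 kb and 2 of 2 over 200 kb. Pecam1, an endothelial adhesion molecule, had 3 peaks, of 212, 126 and 26.1, and the first and the last overlapped a Hoxb13 peak. The transcription factor genes Mecom and Ets1 reached 30.6 and 30.3. Most endothelial markers had no later-intron peak, Cdh5, Kdr and Flt1 among them. Fibroblast markers hosted peaks in 9 of 24 cases (37.5%, 18.8 to 59.4%), led by Bicc1 at 110 and Col5a1 at 67.3, and smooth muscle and pericyte markers in 4 of 16, namely Abcc9, Myocd, Mylk and Myh11. The first pair of those stands on the ion channel and transcription factor lists too. In the same 3 length classes, fibroblast hosts were 1 of 12, 6 of 10 and 2 of 2. Fibroblast markers without a later-intron peak included Col1a1, Col3a1, Dcn and Pdgfra. Smooth muscle and pericyte hosts were 0 of 11, 3 of 4 and 1 of 1. Leukocyte markers had 1 host of 24, Adgre1, with a peak of 17.6. Hepatocyte markers had 3 hosts of 24 (12.5%, 2.66 to 32.4%), close to the background. Under 50 kb the leukocyte and hepatocyte hosts were 0 of 19 and 2 of 21, and at 50 to 200 kb 1 of 5 and 1 of 3. Which cell type a peak came from cannot be told apart in these files.

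Neuronal adhesion and synapse genes, a list of very long genes, gave the highest share of hosts and the lowest median strength of the 14 lists. This list too was chosen with earlier results of these data known, so its share is a description only. All 30 were hosts (88.4 to 100%), with 437 peaks and a median gene length of 1098 kb. The shortest, Dscam, spans 584 kb, and of all protein-coding genes over 500 kb 88.5% were hosts (83.7 to 92.4%). The median strength was 17.4, and 9 of the 437 peaks (2.06%, 0.946 to 3.87%) were among the strongest 10%. Over all protein-coding genes of more than 500 kb these values were 17.8 and 6.24% (5.13 to 7.51%). The strongest peaks were 134 in the potassium channel gene Kcnma1, 130 in Ctnna2, 96.5 in Ntm and 67.7 in Macrod2. The share of hosts and the strength of peaks thus ranked the lists differently: the sarcomere list had fewer hosts and a larger share of strong peaks. Its median gene length is 26.6 kb, compared with 1098 kb here, and the part of length in this difference was not tested.

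**Figure D5:**
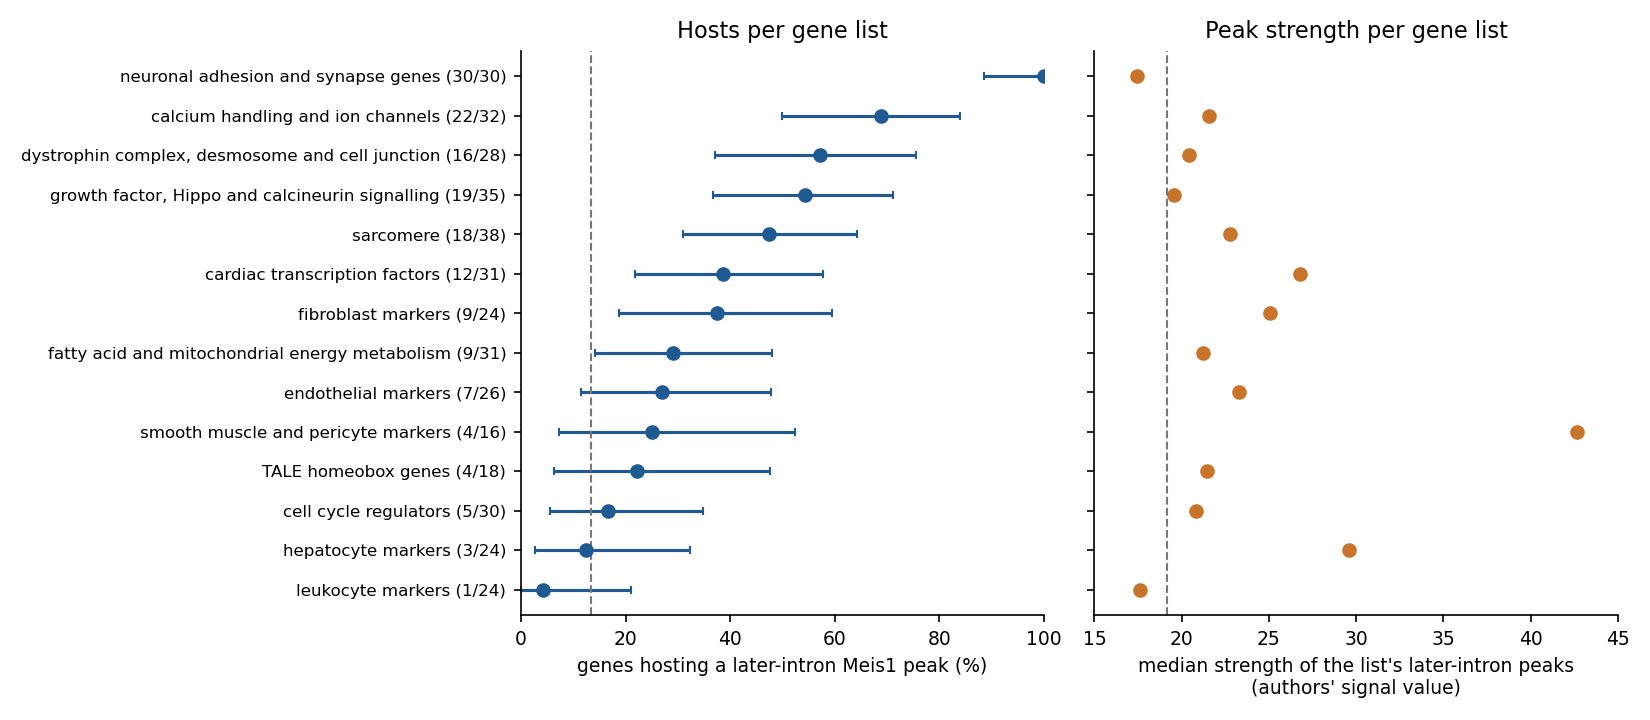
For each of 14 gene lists the left panel gives the share of members hosting a later-intron Meis1 peak (exact binomial 95% interval; dashed line at 13.4% of all protein-coding genes; hosts and members in brackets), and the right panel the median strength of those peaks, with a dashed line at 19.2 for all later-intron peaks. Neuronal genes have the highest share of hosts, 30 of 30, and the lowest median strength, 17.4; the smooth muscle median of 42.7 rests on 10 peaks. The neuronal genes are all over 500 kb long, a length at which 88.5% of protein-coding genes are hosts.

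Later-intron peaks lay farther from start sites than first-intron peaks and nearer than the Meis1 list as a whole. Their median distance to the nearest annotated start was 43.2 kb (quartiles 16.2 and 113 kb), compared with 20.5 kb for first-intron peaks, 58.2 kb for all Meis1 peaks and 131 kb for intergenic ones. Only 465 (6.53%) lay within 5 kb of a start, and 1968 (27.6%) lay beyond 100 kb, where 39.0% of all Meis1 peaks lay. Strong peaks were more frequent near starts. Of the peaks within 5 kb, 20.2% were among the strongest 10% (16.7 to 24.2%), of those at 20 to 100 kb 14.4% (13.1 to 15.7%), and of those beyond 100 kb 7.01% (5.92 to 8.23%). First-intron peaks had 17.6%, 12.9% and 5.95% in the same classes, with overlapping intervals in each.

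For many later-intron peaks the authors' nearest gene was not the gene that contains the peak. Host and nearest gene differed in 1925 of 6889 peaks (27.9%, 26.9 to 29.0%), and in 291 of 2889 first-intron peaks (10.1%, 8.999 to 11.2%). The 5 strongest of these were Trpm2, assigned to Lrrc3, Tox, assigned to Nsmaf (at -254 kb from its start), Git2, assigned to the microRNA gene Mir7028, Cog5, assigned to the receptor gene Gpr22, and Grk3, assigned to Myo18b. MicroRNA genes took 272 peaks of 125 hosts in this way, including 20 of Csmd1 given to Mir3106, 15 of Grm8 given to Mir592 and 12 of Lrp1b given to Mir6336. These 3 pairs were chosen for their counts. Of the 7120 peaks, 2 lay within 1 kb of an annotated hairpin in RefSeq, in F5 and Tmem39b. This count is limited by the class, whose peaks all lie at least 1.004 kb from the nearest start in the authors' annotation, microRNA genes included. Where host and nearest gene were the same, 1065 of 4964 peaks (21.5%) lay upstream of the assigned start, which is then an internal start of the host.

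Overlap with Hoxb13 was lower than in the list as a whole, which includes promoter peaks, and higher than between genes. Promoter peaks made up 748 of the 1693 overlapping peaks of the whole list. Of the 7120 peaks, 263 (3.69%, 3.27 to 4.16%) overlapped a Hoxb13 peak by at least 1 bp, compared with 5.54% of all Meis1 peaks, 4.99% in first introns (4.25 to 5.81%), 36.4% at promoters (34.3 to 38.5%) and 2.53% between genes (2.30 to 2.78%). The intervals of later and first introns do not overlap. Within 5 kb of a start the shares in later and first introns were 5.16% (3.33 to 7.58%) and 7.73% (5.67 to 10.2%). At 5 to 20 kb they were 5.38% and 5.86%, at 20 to 100 kb 4.20% and 4.65%, and beyond 100 kb 1.17% and 0.238%. In each of the 4 distance classes the intervals overlapped, and the part of distance in the difference was not tested.

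Stronger Meis1 peaks overlapped Hoxb13 more often. The share was 7.59% in the strongest 10% (5.97 to 9.47%) and 2.11% in the weakest (1.13 to 3.59%). The 263 overlapping peaks had a median strength of 26.6 and a median distance to a start of 25.8 kb, compared with 19.0 and 44.4 kb for the others. Their 268 Hoxb13 partners had a median strength of 21.7 on the Hoxb13 scale, where the whole Hoxb13 list had 21.4 and its later-intron peaks 20.03. Of the partners 18 (6.72%) were among the strongest 10% of the Hoxb13 list, compared with 3.25% of Hoxb13 later-intron peaks. Summits of the pairs lay a median of 166 bp apart, and 88 later-intron peaks (1.24%) had a Hoxb13 summit within 100 bp.

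Among the 10 strongest overlapping peaks, Meis1 strengths ranged from 168 to 392 and Hoxb13 strengths from 18.3 to 27.0. Lclat1, Trpm2 and Kcng2 led, with the Lclat1 summits 45 bp apart. The others lay in Nav2, which guides neurite growth, Prkab1, a subunit of AMP-activated protein kinase, Atxn1, Pecam1, Trabd2b, Olfml2b and Palmd. A peak of Lclat1 that is among the strongest of the Meis1 list thus met a Hoxb13 peak of 18.6, close to the lower limit of the Hoxb13 list at 17.8. At the level of genes, 1043 of the 3132 hosts (33.3%) also had a Hoxb13 peak in a later intron, which is 57.4% of the 1816 Hoxb13 hosts. Of all protein-coding genes 7.92% had one. Among protein-coding genes over 200 kb a Hoxb13 later-intron peak was present in 444 of 767 Meis1 hosts (57.9%) and in 52 of 223 other genes (23.3%). In genes of 50 to 200 kb it was present in 30.8% and 12.1%, and in genes under 50 kb in 17.5% and 2.25%. The share was higher in Meis1 hosts in each of the 3 length classes, which still hold genes of differing length; no test was made.

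Across chromosomes, later introns held between 20.1% and 26.9% of the Meis1 peaks of each autosome. Chromosome X held 48 of the peaks (0.674%), the same as its share of the whole list (0.675%). That share is small: X held 206 Meis1 peaks of any class, and chromosome 19, the autosome with fewest, held 696.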

How the data were processed

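Binding of Meis1 and Hoxb13 was measured by ChIP-seq in ventricles of CD-1 mice at postnatal day 15 (12 libraries in 4 groups of 3). The build was mm10, and the tools listed, without their roles, were deepTools 1.6, ChIPseeker, Bowtie2 2.2.3 and Picard, per the submitters' processing notes. For the peak caller, its threshold and any pooling of libraries: not given in the sources used here. Each factor has 1 annotated peak list, deposited by the authors. The signal value of each peak in the deposited list, so called from its place in the narrowPeak layout and named strength here, was used to rank and describe peaks within that list. The deposited score was compared with it (Spearman's rho 0.988 over the later-intron peaks) and not used further. The lists hold no value per library, so depth is unknown and no SD, p-value or test between hearts was computed.

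Peaks annotated to an intron other than intron 1 were taken as members. Host genes were read from the annotation and matched to RefSeq genes (GRCm38.p6), which gave 3128 of 3132. Among 13349 pairs of peaks in 1 transcript, none was out of transcription order by intron number. Overlap required 1 bp. Intervals are exact binomial (Clopper-Pearson) at 95%. Promoter windows and their sequences are from RefSeq. The analysis used Python 3.11.15, pandas 2.3.3, numpy 2.4.6, scipy 1.17.1 and matplotlib 3.10.9, and the code was tested on simulated data.

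The members and gene lists were chosen with earlier results of these data known. Of 388 list entries, 387 matched. Genes and peaks were named by rule: the 20 strongest peaks, the 15 hosts with most peaks, the 10 with most per 100 kb among hosts of 5 or more, the 10 introns with most peaks, up to 4 genes per list by strongest peak, the 10 strongest Hoxb13 overlaps and the 5 strongest peaks with another nearest gene; list members without a peak may be named as such. Some genes that meet the rule are not reported here. Other named genes were chosen after their values were seen: those stated, further list members given with a value, and genes given for their sequence or for microRNA counts. Alternatives covered peak strength, overlap, merged peaks, intron number, width and the choice of gene.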

Additional observations from a re-analysis of the deposited data

How the results depend on the processing

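The later-intron share of the Meis1 list, 23.3%, was 25.1% among the stronger 50% of peaks, 30.7% among the strongest 10% and 17.4% when intron 3 was the first counted. The Hoxb13 overlap of 3.69% was 1.32% with a reciprocal overlap of 50%, 1.24% with summits within 100 bp, 2.84% with the stronger 50% of each list and 0.534% (5 peaks) with the strongest 10% of each. The share with another nearest gene, 27.9%, was 31.0% among the strongest 10%. The median strength, 19.2, was 18.7 for peaks of 284 bp. The median distance, 43.2 kb, was 35.4 kb and 31.6 kb in the stronger 50% and strongest 10%, and the share of listed genes with a later-intron peak, 41.4%, was 35.6% and 17.9%. In the strength settings fewer peaks enter by construction. Merging overlapping peaks moved the first 2 shares to 23.3% and 3.68%. Peaks per host, 2.2, were 2.01 by nearest gene and 2.2 inside RefSeq bodies, a setting chosen after seeing the data. No paired analysis was possible because the lists hold no value per library; leaving out a heart could not be run for the same reason, and motifs around summits were not searched, since no genome sequence was used here.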

Other observations

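Of the later-intron peaks, 231 lay in 122 transcripts without a gene identifier. The transcript with most, 14 peaks on chromosome 5, has Speer4d among its nearest genes. The next, with 11 peaks on chromosome 1, has C130026I21Rik. A transcript on chromosome 12 with 1148 introns held 7 of the peaks, the highest in intron 999, with strengths of up to 22.4, and Adam6b among its nearest genes. Outside Arfip1, 83 peaks had a summit beyond the RefSeq body of their host.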
